A study of Homo sapiens with 6 samples.

Results

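The microRNAs (miRNAs) hsa-miR-10a, hsa-miR-10b and hsa-miR-196b are encoded inside the HOX gene clusters, and their assays were followed here in HEK-293FT cells, a kidney-derived human line that carries the SV40 large T antigen. The 3 assays were taken by name, out of 377 human miRNA assays on each quantitative PCR card. Cells labelled TruB1 KD had been transfected with siRNAs against TruB1, a pseudouridine synthase, and the other cells were labelled control. The transfection with Lipofectamine RNAiMAX is given for all samples, with no account of which siRNA, if any, the controls received. There were 3 control and 3 knockdown samples of this 1 line, numbered 1 to 3 in each group by a series number whose meaning is not given. Nothing in the labels says that the samples came from separate cultures, so p-values measure the spread between these samples, which may be technical. The comparison was knockdown against control; the cards hold miRNA assays, and how far TruB1 fell was not analysed here.

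HOX genes encode homeodomain transcription factors that give cells their position along the body axis, and they are switched on in blocks along each cluster. The miRNA genes between them are transcribed with their neighbours, so the mature products are often read as a sign of an active HOX region. MiRNAs of this kind repress messenger RNAs that pair with their seed, the bases near the 5′ end, and among their known targets are HOX messages themselves: HOXD10 for miR-10b and HOXB8 for miR-196. No HOX message was measured on these cards.

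The sequences read by the 3 assays are shown because they set which members can be confused with each other and which other miRNAs resemble them. They are the assay target sequences of the deposited table, 5′ to 3′, with the seed (bases 2 to 8) in capitals.
hsa-miR-10a: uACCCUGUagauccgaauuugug
hsa-miR-10b: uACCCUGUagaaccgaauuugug
hsa-miR-196b: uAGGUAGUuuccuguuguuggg
hsa-miR-100: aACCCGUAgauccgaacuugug
hsa-let-7a: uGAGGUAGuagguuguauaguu
miR-10a and miR-10b share their seed and differ by the single substitution U12A, counted from the 5′ end with the base of miR-10a first. They were the only 2 of the 377 assays with this seed, and miR-196b was the only assay with its own. These counts cover the card only. The related miR-196a has no assay there, and whether the miR-196b assay also reads it was not tested. Since 1 base separates the 2 miR-10 targets, template of one could be read by the assay of the other, which was not tested here. miR-100, a sequence relative of miR-10a, shares a run of 11 bases with it. The run lies at bases 7 to 17 of miR-10a and 6 to 16 of miR-100, and the seeds of the 2 differ. The seed of miR-196b recurs at bases 3 to 9 of 6 of the 7 let-7 assays on the card, let-7a among them, and is the longest run that miR-196b and let-7a share.

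Each member is cut from a hairpin, printed here with the arm that the assay reads in capitals. The hairpins are those of RefSeq for GRCh38.p14, and the capitals mark where the deposited target sequence matches.
MIR10A: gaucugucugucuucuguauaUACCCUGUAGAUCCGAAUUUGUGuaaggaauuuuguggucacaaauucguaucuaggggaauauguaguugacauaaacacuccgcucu
MIR10B: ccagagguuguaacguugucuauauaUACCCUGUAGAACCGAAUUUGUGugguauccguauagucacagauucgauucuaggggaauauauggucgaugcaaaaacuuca
MIR196B: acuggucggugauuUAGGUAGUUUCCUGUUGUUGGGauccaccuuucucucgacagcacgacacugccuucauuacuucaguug
MIR10A lies at chr17:48579838-48579947 on the minus strand, between HOXB4 and HOXB5 and within the span of HOXB3. MIR10B lies at chr2:176150303-176150412 on the plus strand, between HOXD8 and HOXD4, and overlaps no other annotated gene. MIR196B lies at chr7:27169480-27169563 on the minus strand, between HOXA9 and HOXA10 and within the spans of the HOXA10-HOXA9 readthrough gene and of the long noncoding RNA HOXA10-AS. Whether these spans are exonic or intronic at the hairpins was not examined. The members therefore come from 3 different HOX clusters, B, D and A.

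Levels are threshold cycles (Ct), the PCR cycle at which a well's fluorescence crosses a set level. The earlier the crossing, the more template the well held, by 2-fold per cycle if amplification is complete. The deposited ratio of an assay is its level relative to U6 small nuclear RNA in the same sample. Between 188 and 226 miRNA assays per sample had a Ct under 35, and 157 had one in all 6 samples. The mean U6 Ct ran from 12.2 to 15.4 cycles over the samples, read from 2 to 4 determined wells. The wells of 1 sample spanned between 0.357 cycles (knockdown sample 3) and 2.77 cycles (control sample 1). The 2 wells of control sample 3 lay 1.82 cycles apart. This spread enters each ratio to U6. Mean U6 Ct was 0.905 cycles later in knockdown than in control on average (exact permutation test, two-sided, p = 0.5), and later in 3 of 3 series, by 0.142, 1.48 and 1.10 cycles in series 1, 2 and 3. The mean Ct of the 157 commonly detected assays ran from 25.9 to 27.7 cycles and served as a second reference. It too was later in knockdown, by 1.04 cycles on average (exact permutation test, two-sided, p = 0.2) and by 0.314, 1.12 and 1.69 cycles in series 1, 2 and 3. No list of miRNAs that define the kidney line was available to check the label. Of 13 miRNA assays for liver, muscle, blood, pluripotent cells or neurons, 5 (miR-122, miR-302a, miR-371-3p, miR-372 and miR-373) were undetermined in all 6 samples. The other 8 were under Ct 35 in at least 1 sample. These were miR-133a (muscle) in all 6, miR-142-3p and miR-223 (blood) and miR-124a (neurons) in 5, and miR-302b (pluripotent cells) in 4. Also under it were miR-133b and miR-150 in 2 samples and miR-302c in 1. The summed level of the 13 was 0.0291 to 0.250 per 1000 U6 in control and 0.0170 to 0.194 in knockdown, below each member in the same table. The part of these assays in the results was not tested.

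All 3 members were abundant. Each gave a Ct in all 6 samples, far from the detection limit, and all 3 passed the filter on late Ct values. In control cells miR-196b was at a mean Ct of 20.9 ± 0.627 (SD, n = 3), in place 12 of the 183 assays determined in all 3 control samples. miR-10a followed at 22.6 ± 0.924 (SD, n = 3), in place 28, and miR-10b at 23.1 ± 0.790 (SD, n = 3), in place 32. In single samples, between 81.3% and 95.7% of the determined miRNA assays had a later Ct than a given member. By rank within a sample, miR-196b was between 9 and 22, miR-10a between 22 and 37 and miR-10b between 24 and 38.

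**Figure D1:**
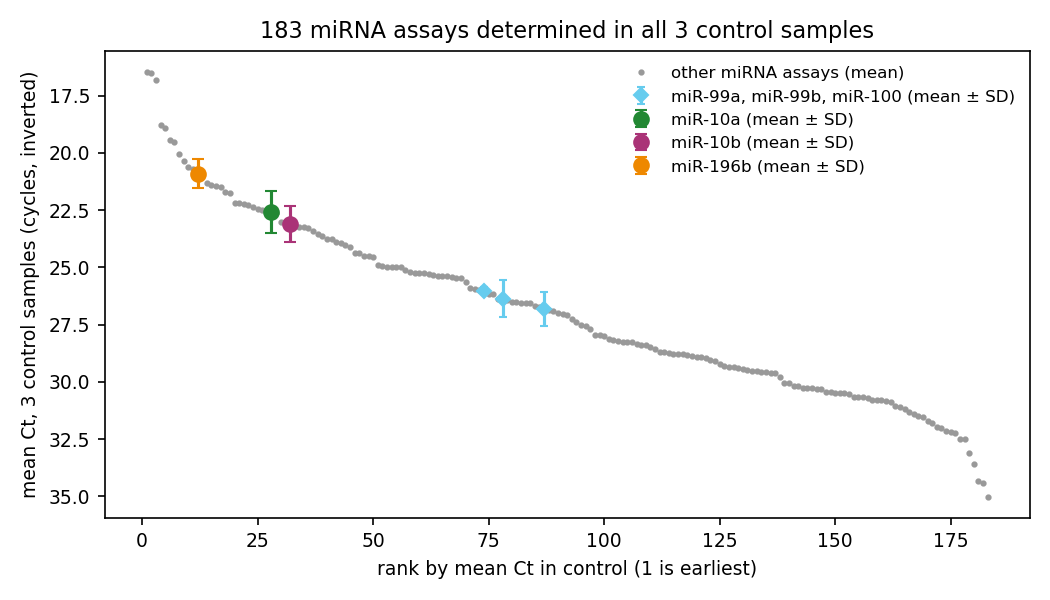
Mean Ct over the 3 control samples (vertical axis, cycles, inverted so that up is more template) against rank for the 183 miRNA assays determined in all 3. Grey points are other assays, coloured points are the members and the related miR-99a, miR-99b and miR-100 with their SD (n = 3). miR-196b sits in place 12, miR-10a in 28 and miR-10b in 32, while the 3 relatives lie in places 74 to 87.

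The neighbours of each member in this order were taken by rank, so small gaps follow from that choice. miR-454 and miR-30c lay before and after miR-196b, at -0.198 and 0.0410 cycles from it. miR-18a and miR-342-3p lay at -0.0275 and 0.0465 cycles from miR-10a, and miR-149 and miR-20b at -0.0736 and 0.0209 cycles from miR-10b. Each of these gaps was smaller than the SD of the member between control samples. The order also carries the efficiency of each assay, so a gap between assays is not a measured ratio of molecules.

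Between the members, the order was firm for miR-196b only. Over all 6 samples miR-10a was at -1.72 ± 1.21 (SD, n = 6) and miR-10b at -1.86 ± 0.860 (SD, n = 6) on the log2 scale relative to miR-196b on the same card. miR-196b had the earlier Ct in all 6 samples, though miR-10a came within -0.06 of it in knockdown sample 1. miR-10a and miR-10b were not separated: their log2 difference was 0.14 ± 0.84 (SD, n = 6), with miR-10a above miR-10b in 3 samples and below it in 3.

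hsa-miR-10a, the HOXB member, was lower in knockdown on average, by less than its spread. Its deposited ratio, given here per 1000 U6, was 7.38, 1.25 and 0.860 in the controls of series 1, 2 and 3. In the knockdowns of the same series it was 5.41, 1.26 and 0.343. The 2 samples of series 1 were the highest, knockdown sample 3 was the lowest, and the groups overlapped. The mean log2 ratio was -8.97 ± 1.66 in control and -9.56 ± 1.99 in knockdown (SD, n = 3 each). In limma, fitted over all 195 tested assays, the log2 difference was -0.59 (SE 1.47, 95% interval -3.49 to 2.31, Benjamini-Hochberg adjusted p = 0.999), a fold of 0.665 with an interval of 0.0891 to 4.96. Leaving out knockdown sample 1 gave -1.60, the lowest value with a sample left out, and leaving out knockdown sample 3 gave 0.39, the highest. It was above 0 without control sample 1 too (0.35). The median of all tested assays moved likewise, and miR-10a lay below it each time. That median was -0.81 without knockdown sample 1, 0.76 without knockdown sample 3 and 0.58 without control sample 1.

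hsa-miR-10b, the HOXD member that carries the same seed, had no steady direction. Its ratio per 1000 U6 was 2.55, 1.14 and 0.929 in the controls of series 1, 2 and 3. In the knockdowns of the same series it was 3.66, 2.35 and 0.448. Knockdown held both the highest and the lowest value, so the groups overlapped over the whole range of the control samples. The mean log2 ratio was -9.49 ± 0.77 in control and -9.32 ± 1.60 in knockdown (SD, n = 3 each). The log2 difference in limma was 0.17 (SE 1.46, 95% interval -2.71 to 3.05, adjusted p = 0.999), a fold of 1.12 with an interval of 0.153 to 8.29. It turned negative without knockdown sample 1 (-0.44), knockdown sample 2 (-0.12) or control sample 3 (-0.12). In those fits the median of all tested assays moved too, to -0.81, -0.29 and -0.74, below miR-10b each time. It was also negative on raw Ct with the sign turned (-0.74), a scale on which all tested assays had a median of -1.0.

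hsa-miR-196b, the HOXA member and the most abundant of the 3 by Ct, was lower in knockdown in each series number relative to U6. Its ratio per 1000 U6 was 10.4, 6.71 and 3.83 in the controls of series 1, 2 and 3. In the knockdowns of the same series it was 5.66, 4.85 and 3.23. Control sample 1 was the highest and knockdown sample 3 the lowest, yet control sample 3 lay below 2 of the knockdown samples, so the groups overlapped. The mean log2 ratio was -7.28 ± 0.72 in control and -7.81 ± 0.42 in knockdown (SD, n = 3 each). The log2 difference in limma was -0.53 (SE 1.45, 95% interval -3.40 to 2.34, adjusted p = 0.999), a fold of 0.693 with an interval of 0.0949 to 5.07. limma draws each assay's variance towards a value shared by all tested assays. The SEs of the 3 members were therefore close (1.47, 1.46 and 1.45) and are not each member's own spread. In the linear model with the ordinary standard error, the unadjusted p of miR-196b was 0.333, against 0.717 in limma (adjusted p = 0.998 and 0.999). For miR-10a and miR-10b the ordinary standard error gave 0.714 and 0.876. It stayed below 0 with each of the 6 samples left out, from -0.90 without control sample 3 to -0.18 without control sample 1. The median of all tested assays was -0.74 and 0.58 in those fits, in that order. By raw Ct the groups did not overlap, with controls at 21.3, 21.2 and 20.2 cycles and knockdowns at 22.3, 23.1 and 21.5 in series 1, 2 and 3. Of the 161 assays determined in all 6 samples, 24 (14.9%) had every knockdown Ct later than every control Ct, and relative to U6 the count was 0 (0%). A later Ct in knockdown in 3 of 3 series, as miR-10a and miR-196b had, was found for 61.5% of the 161 assays, and an earlier one for 0.621%.

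**Figure D2:**
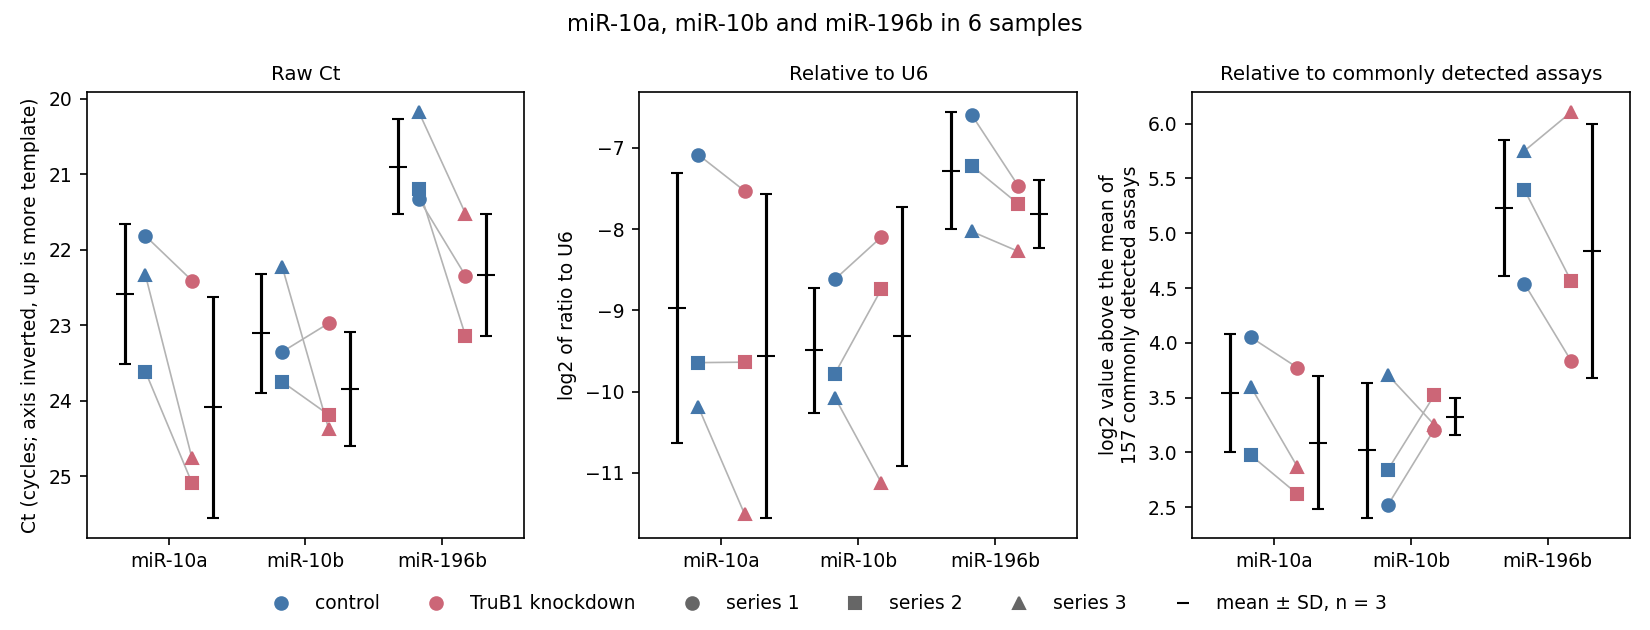
Values of the 3 members in each sample by raw Ct (left, cycles, inverted), as log2 of the ratio to U6 (middle) and as log2 value above the mean of the 157 commonly detected assays (right). Blue is control and red is TruB1 knockdown, the point shape gives the series number, grey lines join the 2 samples of a series, and black bars are the mean ± SD (n = 3). The groups overlap for each member in the middle and right panels, and by raw Ct only for miR-10a and miR-10b.

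None of the 195 tested assays passed an adjusted p of 0.05 in limma (percent called 0), and 0 had an unadjusted p under 0.05. The series number was treated as pairing the samples, and with it as a replicate block again 0 of 189 assays passed, with 10 at an unadjusted p under 0.05. The block narrowed the members' intervals without changing a call. The log2 interval became -1.67 to 0.49 for miR-10a, -1.07 to 1.41 for miR-10b and -1.52 to 0.46 for miR-196b (adjusted p = 0.971, 0.990 and 0.971 in limma). These intervals still hold a fold of 0.314 and of 1.41 for miR-10a, so they do not show that the members were alike in the 2 groups. Among all tested assays without the block, 13.3% had a lower difference than miR-10a, 15.4% a lower one than miR-196b and 72.8% a lower one than miR-10b, and the median was -0.10.

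Within the series numbers the members did not share a direction. In series 1, 2 and 3 the log2 difference of miR-10a relative to U6 was -0.45, 0.01 and -1.33. That of miR-10b was 0.52, 1.04 and -1.05, and that of miR-196b was -0.87, -0.47 and -0.24. miR-10b was thus higher in knockdown in 2 series and lower in the third, whereas miR-196b was lower in 3 of 3. Being lower in 3 of 3 series was common on these cards, with 31 of 161 assays (19.3%), and higher in 3 of 3 held for 4.35%. The whole card shifted as well: the median of all assays was -0.17, 0.30 and -0.49 in series 1, 2 and 3. In the authors' deposited table the same comparisons stand as fold changes of 0.733, 1.00 and 0.399 for miR-10a, 1.43, 2.06 and 0.482 for miR-10b, and 0.546, 0.723 and 0.844 for miR-196b.

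Set against the commonly detected assays in place of U6, the member that was lower in every series was a different one. miR-10a was then at -0.28, -0.35 and -0.73 in series 1, 2 and 3, a mean of -0.45 ± 0.24 (SD, n = 3), lower in 3 of 3 series as were 19 of 161 assays (11.8%), with the same number higher in 3 of 3. miR-10b was at 0.69, 0.68 and -0.45, and miR-196b at -0.70, -0.83 and 0.35. In series 1 and 2 the 3 members kept nearly the same differences on this scale, and series 3 was the one in which miR-10b and miR-196b both changed sign. No member had groups that did not overlap on this scale, where 3.11% of assays had every knockdown value above every control value and 0% the reverse. With this reference the limma differences were -0.45, 0.31 and -0.39 for miR-10a, miR-10b and miR-196b (adjusted p = 0.991 each).

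**Figure D3:**
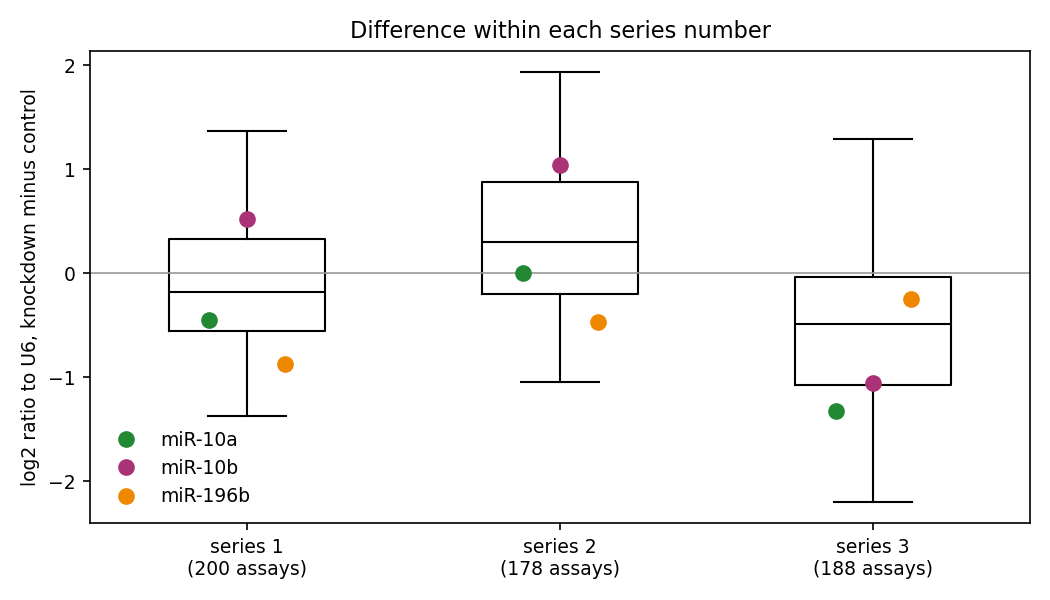
Log2 ratio to U6, knockdown minus control, within each series number (vertical axis) for all assays determined in both samples of that series. Boxes span the quartiles with the median, whiskers the middle 90%, and coloured points are the members. miR-10b lies above the median in series 1 and 2 and below it in series 3, and miR-196b does the reverse.

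The difference between 2 members on 1 card does not depend on any reference, and this was compared over the 3 pairs of members. miR-10a over miR-10b, the HOXB over the HOXD copy, was 1.53, 0.13 and -0.11 on the log2 scale in the controls of series 1, 2 and 3. It was 0.57, -0.90 and -0.39 in their knockdowns. The balance lay more towards miR-10b in knockdown in all 3 series, by -0.97, -1.03 and -0.27, a mean of -0.76 ± 0.42 (SD, n = 3). The groups overlapped, with means of 0.52 ± 0.89 in control and -0.24 ± 0.74 in knockdown (SD, n = 3 each). The exact two-sided permutation test gave p = 0.4 (adjusted p = 0.6 over 3 pairs, where 0.1 is the smallest unadjusted p that 3 against 3 samples allow). Within series, the exact sign-flip test gave p = 0.25, its smallest possible value (adjusted p = 0.75). The sign held with each of the 6 samples left out, but the size ranged from -1.16 when knockdown sample 1 was dropped to -0.25 when control sample 1 was.

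The other pairs showed no steady change. miR-10b over miR-196b was -2.21 ± 0.30 in control and -1.51 ± 1.18 in knockdown (SD, n = 3 each; exact permutation test, two-sided, p = 0.4, adjusted p = 0.6). It was higher in knockdown in series 1 and 2, by 1.39 and 1.51, and lower in series 3, by -0.81. The control values of this pair were the closest to each other, and the knockdown values were spread more widely. miR-10a over miR-196b was -1.69 ± 1.05 in control and -1.75 ± 1.60 in knockdown (SD, n = 3 each; exact permutation test, two-sided, p = 1, adjusted p = 1). Its sign depended on the samples, being 0.54 without control sample 1, 0.04 without knockdown sample 2 and 0.68 without knockdown sample 3.

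**Figure D4:**
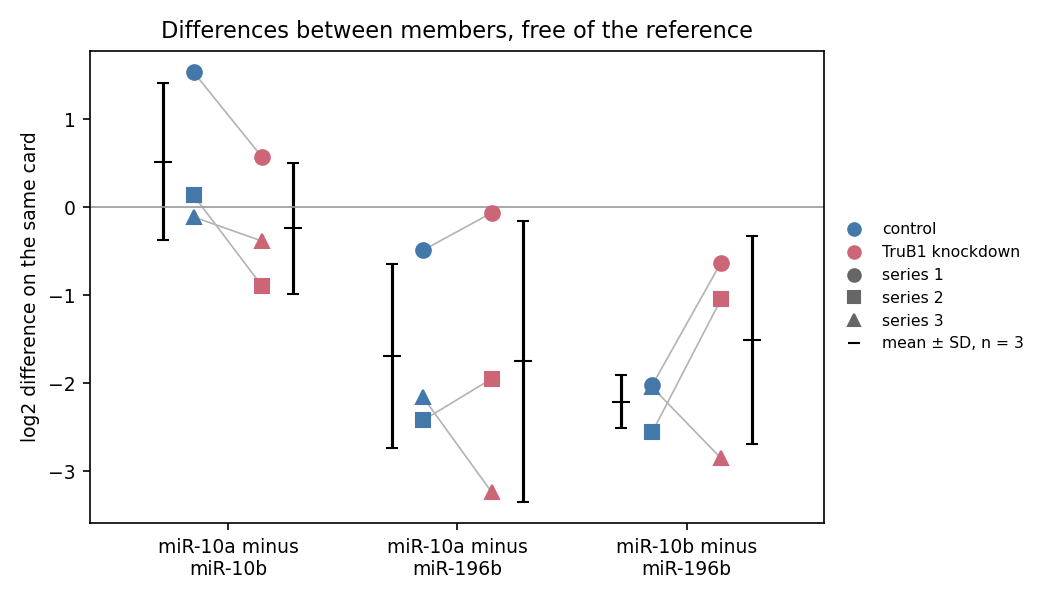
Log2 difference between 2 members on the same card (vertical axis) in each sample, for the 3 pairs of members. Colours, shapes, lines and bars are blue for control, red for knockdown, 1 shape per series number, grey lines within a series and black for mean ± SD (n = 3). The lines of miR-10a minus miR-10b all slope down, and those of the other 2 pairs cross direction in series 3.

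Most of the members' variation relative to U6 lay between series numbers. Of the variation of miR-10a over the 6 samples 93.0% lay between series numbers, with 80.6% for miR-10b and 71.1% for miR-196b, against a median of 91.5% over 161 assays. Values unrelated to the series number would also place some of their variation between the numbers, and that background was not computed. The members' shares depended on the scale. Relative to the commonly detected assays they were 77.5%, 39.9% and 82.3% for miR-10a, miR-10b and miR-196b (median 67.9%), and by raw Ct 55.1%, 23.0% and 36.1% (median 51.8%). The SD over the 6 samples was 1.67 for miR-10a, 1.12 for miR-10b and 0.60 for miR-196b on the log2 scale, with a median of 1.39. Relative to U6, only 1.24% of those assays had a smaller SD than miR-196b. This placement hung on the reference, since relative to the commonly detected assays its SD was 0.86 and 70.2% of assays had a smaller one. On that scale the SD of miR-10b was 0.44 and that of miR-10a 0.57, against a median of 0.67.

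The nearest sequence relatives of miR-10 come from loci outside the HOX clusters and were less abundant by Ct. miR-99a, miR-99b and miR-100 were under Ct 35 in all 6 samples, between 26.1 and 29.0 cycles for miR-99a, 25.8 and 27.4 for miR-99b, and 25.4 and 28.9 for miR-100. Every one of these values was later than the latest miR-10a or miR-10b value of 25.1 cycles. In limma none of the 3 passed (adjusted p = 0.999 each), with log2 differences of -0.27, -0.07 and -0.05 for miR-99a, miR-99b and miR-100 and a median of -0.07 for the 3.

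Of 8 further names for HOX-cluster miRNA products that were looked up, 2 were on the card, both from MIR615 in the HOXC cluster. The assay named miR-615, whose target is the 3′ arm, was undetermined in all 6 samples. miR-615-5p was at 30.8, 29.7 and 31.5 cycles in the controls of series 1, 2 and 3 and at 31.4 and 32.3 in the knockdowns of series 1 and 2, with no Ct in knockdown sample 3. miR-615-5p, from 1 hairpin and not a reading of the whole HOXC cluster, was thus detected late, at least 4 cycles after the latest member value. Its log2 difference relative to U6 was -0.44 in series 1 and -1.16 in series 2. The limma value without the block was 0.35 (adjusted p = 0.999), since knockdown sample 3 is missing there, and -0.80 with the block (adjusted p = 0.971).

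The let-7 family is known as tumour-suppressive, and most of its assays on the card, though not let-7e, hold the miR-196b seed at the offset given above. Of 8 listed assays on the card, 7 were tested and 0 passed in limma, with 6 lower and 1 (let-7e, 2.10) higher and a median of -0.94 against -0.10 for all tested assays. Most tested assays were lower too, since their median lay below 0. let-7e and let-7g had no Ct in control sample 2, and let-7d had none in knockdown sample 2. With the block the values of let-7e, let-7g and let-7d were 0.26, -1.99 and -1.09. let-7a was between 28.0 and 34.5 cycles, later than miR-196b in every sample. This did not hold for the whole list, since let-7e was at 22.8 cycles in knockdown sample 2, where miR-196b was at 23.1.

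For each member the 3 assays with the most similar profile over the 6 samples were found among the 156 other commonly detected assays, each taken relative to their mean. The closest to miR-196b were miR-191 (Pearson r = 0.980), miR-193b (0.948) and miR-125a-5p (0.929). To miR-10a they were miR-106b (0.898), miR-500 (0.860) and miR-652 (0.800), and to miR-10b miR-545 (0.876), miR-26a (0.864) and miR-193a-3p (0.820). These are descriptions over 6 samples that share 3 series numbers and 2 conditions, and the best of 156 is high by selection. By raw Ct the r of miR-545 to miR-10b was 0.442, below that member's median of 0.696 over the 156 assays, and the other 8 values were between 0.901 and 0.987. The members themselves were not among each other's closest assays. On the same scale miR-10a and miR-10b were at r = -0.383, miR-10a and miR-196b at -0.403 and miR-10b and miR-196b at 0.250. By raw Ct, which carries the shift of whole cards, the 3 values were 0.822, 0.519 and 0.575. The median raw-Ct r over the 156 assays was 0.800 for miR-10a, 0.696 for miR-10b and 0.551 for miR-196b.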

How the data were processed

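Total RNA (1000 ng) was reverse transcribed with pooled miRNA primers and run on TaqMan array cards for 40 cycles, per the labels' protocols. The authors deposited raw Ct values, ratios to U6 and fold changes. Threshold and baseline settings and software are not given in the sources used here. The deposited ratio was recovered from Ct as 2 to the power of mean U6 Ct minus assay Ct, to within 6.8e-06 on the log2 scale. Each miRNA has 1 well per sample, so well error and sample spread cannot be separated; there are no counts and no depth.

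Log2 ratios were compared in limma 3.58.1 (R 4.3.3; lmFit, eBayes, two-sided), with group as the only term. Assays needed a Ct under 35 in at least 3 samples and a value in at least 2 per group. Undetermined wells were missing. The blocked fit also needed 2 complete series. The script was run on simulated data with planted differences larger than those of the members. That run checked the code and does not measure what the main fit could detect for the members. Single values had exact permutation tests. Named assays were the members, lists of HOX, miR-10-like and let-7-like assays and of other cell types, neighbours in control Ct and the 3 most similar profiles. Members and lists were chosen with earlier results of these data known. Alternatives changed the reference, normalization, treatment of undetermined wells, filter, variance model, block and samples.

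Samples with the same series number deviated together from their group means over 161 assays (r = 0.416, 0.527 and 0.625 in series 1, 2 and 3), all above 0.1. Samples with different numbers had r from -0.536 to 0.249. Above 0.1 were control 1 with knockdown 2 (0.249) and control 2 with knockdown 1 (0.129). The numbers were taken as pairs from the data, and the authors' fold changes also compare samples of the same number. No label says what the number stands for.

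The RefSeq table used here gave all 3 hairpins and the mature sequences of miR-10a and miR-196b; that of miR-10b is the deposited target sequence.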

Additional observations from a re-analysis of the deposited data

How the results depend on the processing

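No alternative changed a call for a member. In 21 of 22 alternatives 0 assays passed an adjusted p of 0.05, and 6 did, none of them a member, in the blocked fit without series 3 (range 0 to 6 over fits that left out samples). Between 0 and 15 assays had an unadjusted p under 0.05. The replicate block kept 0 calls (189 assays, 10 at an unadjusted p under 0.05) and changed no other call; its differences were -0.59, 0.17 and -0.53 for miR-10a, miR-10b and miR-196b.

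With samples or series left out, the log2 difference ran from -1.60 to 0.39 for miR-10a (2 of 9 fits reversed), -0.44 to 1.07 for miR-10b (5 of 9 reversed) and -0.90 to -0.18 for miR-196b (0 of 9). The median of all tested assays ran from -0.81 to 0.76 over the same fits. Leaving a whole series out of the blocked fit was chosen after seeing the data. For miR-10b this gave -0.0057 without series 1 and -0.27 without series 2. The medians there were -0.20 and -0.37. Over the 13 other alternatives the log2 difference ran from -1.49 to -0.37 for miR-10a, -0.74 to 0.40 for miR-10b and -1.43 to -0.34 for miR-196b. Only miR-10b by raw Ct (-0.74) reversed. That scale keeps the shift of whole cards (median -1.0).

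Differences between members ran, with a sample left out, from -1.16 to -0.25 for miR-10a over miR-10b, -0.90 to 0.68 for miR-10a over miR-196b (3 of 6 reversed) and 0.26 to 1.37 for miR-10b over miR-196b. The U6 difference ran from 0.172 to 1.54 cycles. Relative to the commonly detected assays, mean log2 levels in control and knockdown were 3.54 and 3.09 for miR-10a, 3.02 and 3.33 for miR-10b, and 5.23 and 4.84 for miR-196b, a change of scale by construction. The causes of the other moves were not tested. The SE of miR-10a was 1.47 relative to U6, 0.54 relative to the commonly detected assays and 0.46 with the block.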
